A study of Mus musculus with 72 samples.

Results

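Interferon-stimulated genes were followed in liver and intestine of mice on a ketogenic diet or on chow. The group holds 42 of the 20659 genes named on the array. The genes were chosen by symbol from those known to respond to type I interferon and were selected on earlier results of the liver arrays, namely the difference between the diets and the difference between their daily rhythms. The liver values below are therefore a description. Where genes called in liver by limma are counted, over the day, by time or for rhythm, the count stands beside the share of all genes and nothing is read from it. The intestine arrays were a separate measurement and were tested.

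RNA of male C57BL/6J mice was hybridised to an Affymetrix mouse gene array, which gives 1 intensity for each probe set, a set of short probes read together. The mice were kept on 12 h of light and 12 h of dark and from 8 weeks of age were given a ketogenic diet, low in carbohydrate and high in fat, or chow for 4 weeks. Liver and intestine, the latter written INTESTINE (IEC) in the labels, were taken at 6 zeitgeber times (ZT, counted in hours from lights on), namely 0, 4, 8, 12, 16 and 20, with 3 arrays for each tissue, diet and time, 72 arrays in 24 groups. The protocol text shared by all samples also names fructose gavage (4 g/kg for 7 days) and 30% sucrose in the drinking water and does not state whether either applies to these arrays. No sample carries a genetic change in the labels. Nothing states that replicates were separate animals, so a p-value here reflects only how far these samples spread, which may be technical. In RNA from many cells together, fewer cells of a type and less RNA per cell cannot be told apart. The intestine RNA, given the label IEC, may not be of whole tissue.

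Cells that detect viral or misplaced nucleic acid secrete type I interferon, and its receptor activates transcription factors, among them STAT2 and IRF9, that switch on several classes of gene together. These encode sensors that detect foreign RNA or DNA, effectors that block viral replication, the transcription factors that carry the signal on, and feedback proteins that restrain it. IRF9 and other IRF proteins bind DNA elements built from repeats of GAAA. Liver and gut keep a low basal level of this program, since both are exposed to microbial products.

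The element was looked for in the promoters because the members moved together. Of the 42 genes, 33 matched by symbol to the RefSeq promoter table (GRCm38.p6). Usp18, Oas2, Mx2, Rtp4, Dhx58, Parp9, Parp14, Tor3a and Zbp1 were not in it. The motif searched was GAAA, any 2 bases and GAAA again, or the same with TTTC for the other strand, in the 250 bases before the start of each gene; overlapping copies were counted. It was present in 8 of the 33 members (24.2%) and in 936 of 27025 genes in the table (3.46%). The 8 were Ifit1, Rsad2, Ifit3, Ddx60, Trim30a, Oas3, Bst2 and Stat2. Below are the 6 with the largest liver difference between diets and, without the motif in this window, Ifi44, the member with the largest liver difference of all. The windows lie at chr19:34640639-34640888 on the plus strand for Ifit1, chr12:26456453-26456702 on the minus strand for Rsad2, chr19:34583279-34583528 on the plus strand for Ifit3 and chr8:61927837-61928086 on the plus strand for Ddx60. Those of Trim30a (the second of its 2 starts, the first having no match), Oas3 and Ifi44 lie on the minus strand at chr7:104465194-104465443, chr5:120777660-120777909 and chr3:151749911-151750160. Each is written 5′ to 3′ towards the gene, with the motif in capitals.
Ifit1: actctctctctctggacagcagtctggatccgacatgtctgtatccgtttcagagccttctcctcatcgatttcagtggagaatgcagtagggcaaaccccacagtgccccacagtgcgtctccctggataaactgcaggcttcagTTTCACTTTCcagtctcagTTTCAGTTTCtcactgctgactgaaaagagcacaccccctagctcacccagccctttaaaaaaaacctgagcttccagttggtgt
Rsad2: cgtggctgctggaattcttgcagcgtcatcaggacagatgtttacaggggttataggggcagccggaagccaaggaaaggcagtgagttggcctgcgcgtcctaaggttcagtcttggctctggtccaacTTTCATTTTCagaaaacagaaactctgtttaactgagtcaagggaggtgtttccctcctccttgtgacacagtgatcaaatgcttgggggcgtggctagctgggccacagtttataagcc
Ifit3: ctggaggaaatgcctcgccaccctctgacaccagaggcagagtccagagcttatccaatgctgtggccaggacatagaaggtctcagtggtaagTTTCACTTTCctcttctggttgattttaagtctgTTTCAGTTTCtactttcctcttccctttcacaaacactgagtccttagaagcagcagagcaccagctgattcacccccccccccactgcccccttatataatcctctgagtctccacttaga
Ddx60: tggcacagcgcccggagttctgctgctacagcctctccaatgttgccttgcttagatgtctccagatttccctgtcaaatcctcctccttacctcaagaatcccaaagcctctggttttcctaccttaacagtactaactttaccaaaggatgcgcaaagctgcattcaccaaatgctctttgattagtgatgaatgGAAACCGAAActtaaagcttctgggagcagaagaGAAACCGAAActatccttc
Trim30a: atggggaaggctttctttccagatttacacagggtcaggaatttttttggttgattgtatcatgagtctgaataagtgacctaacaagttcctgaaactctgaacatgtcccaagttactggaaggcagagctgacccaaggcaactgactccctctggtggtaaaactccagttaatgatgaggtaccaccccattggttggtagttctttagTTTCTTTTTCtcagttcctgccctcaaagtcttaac
Oas3: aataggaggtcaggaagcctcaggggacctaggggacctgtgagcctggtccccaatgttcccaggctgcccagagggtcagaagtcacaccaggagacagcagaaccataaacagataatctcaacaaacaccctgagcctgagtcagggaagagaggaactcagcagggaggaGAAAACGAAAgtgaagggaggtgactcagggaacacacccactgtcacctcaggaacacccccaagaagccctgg
Ifi44: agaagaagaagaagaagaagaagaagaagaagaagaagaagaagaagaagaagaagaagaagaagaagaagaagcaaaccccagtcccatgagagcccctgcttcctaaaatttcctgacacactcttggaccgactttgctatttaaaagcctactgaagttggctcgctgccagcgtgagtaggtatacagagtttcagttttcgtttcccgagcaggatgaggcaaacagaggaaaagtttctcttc
The Ifit1 window held 2 copies, beginning 104 and 85 bases before the start, and that of Ifit3 held 2, beginning 156 and 122 bases before it. In Ddx60 the 2 copies lay at 53 and 19 bases. Rsad2, Trim30a and Oas3 had 1 each, at 120, 36 and 75 bases. A match is a description of the letters and not of a bound site, and a window with no match says only that these letters are not in it. The median liver difference, ketogenic minus chow on the log2 scale, was 0.70 over the 8 members with the motif and 0.34 over the 25 without. The ranges overlapped (0.11 to 1.60 and -0.09 to 1.60), and nothing is read from this, since the liver difference chose the members. In intestine the medians were -0.659 and -0.258, and the ranges overlapped too (-1.205 to 0.04 and -0.516 to 0.037). Neither comparison was tested. Several members are neighbours in the genome: in RefSeq's order of protein-coding genes Rsad2 lies next to Cmpk2, Ifit2 next to Ifit3, Oasl2 next to Oasl1, Oas2 next to Oas3, and Psmb9, Tap1 and Psmb8 follow each other, as do Parp14, Dtx3l and Parp9, where Dtx3l and Parp9 overlap. Mx2 is listed there as a transcribed pseudogene.

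All values below are log2(intensity + 16), where 16 is a pseudocount that damps noise near 0, so a fold change understates the change of dim genes. A gene was tested in a tissue if its mean there was at or above the 40th percentile, which 41 of the 42 were in liver (not Oas3) and 36 in intestine (not Dhx58, Oas2, Ifit2, Mx2, Ifi44 and Usp18). A gene is called when its Benjamini-Hochberg adjusted p from limma, over all 12395 genes tested in the tissue, is under 0.05. Probe sets of near-identical copies, such as Ifit3 and Ifit3b or Trim30a and Trim30d, may share signal. The tissues matched their labels: the summed intensity of 10 hepatocyte markers was 93203 to 109053 in liver arrays and 20807 to 31845 in intestine arrays, and that of 12 enterocyte markers was 7513 to 14870 and 66431 to 86165. Clock genes, 15 in number, placed 69 of 72 arrays nearest to their own time. The exceptions were chow liver arrays, ZT8 replicate 12, ZT12 replicate 17 and ZT16 replicate 9. In intestine 3 ketogenic arrays, ZT0 replicate 1, ZT8 replicate 26 and ZT20 replicate 27, had residuals more than 1.5 times as wide as the median array. Several counts that rest on these 6 arrays are given with and without them. Amplitudes and fitted peaks are given only with all arrays in. The count rhythmic on chow in liver is not given without the 3 chow arrays together.

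In liver the interferon genes stood higher on the ketogenic diet through most of the day and met the chow level at ZT12. The mean of the 42 genes was 8.48 to 8.95 in the 18 chow arrays, with a median of 8.73. On the ketogenic diet the 3 arrays gave 9.51, 9.70 and 9.61 at ZT0, 9.35, 9.64 and 9.32 at ZT4, and 9.17, 8.94 and 9.04 at ZT8. They gave 8.70, 8.63 and 8.52 at ZT12, 9.29, 9.79 and 8.75 at ZT16, and 10.10, 10.13 and 9.85 at ZT20. The highest 3 arrays of the tissue were thus the ketogenic ZT20 arrays, and 13 of the 18 ketogenic arrays lay above every chow array. Between the group means the difference was 1.25 at ZT20, 0.88 at ZT0, 0.59 at ZT4, 0.30 at ZT8 and -0.05 at ZT12, returning to 0.52 at ZT16. At ZT16 the 3 ketogenic arrays were far apart: replicate 6 exceeded replicate 5, which exceeded replicate 22, in 41 of the 42 members and in 22.8% of all genes tested. Replicate 22 was at or below the highest chow array of that time in 33 members, and replicate 6 was above it in 40. For these counts against chow the shares of all genes were not taken, so nothing is read from them.

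**Figure D1:**
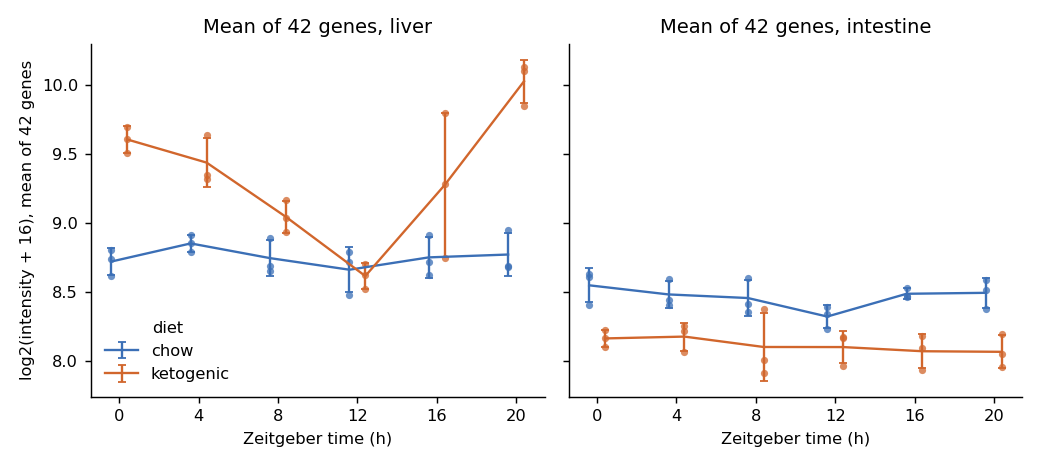
Mean of the 42 interferon-stimulated genes in each array, log2(intensity + 16), against zeitgeber time in liver (left) and intestine (right); points are arrays, lines join group means and bars are the SD of 3 arrays. In liver the ketogenic arrays reach 10.13 at ZT20 and meet chow at ZT12, while in intestine 16 of 18 ketogenic arrays lie below every chow array.

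Over the mean of the 6 times, 38 of the 41 members tested in liver were called higher on the ketogenic diet, where 19.2% of all genes were, and 0 were called lower, where 29.1% of all genes were. At an unadjusted p under 0.05 the lower count was also 0 (32.9% of all genes). Nothing is read from these counts, since the same contrast chose the members. The median difference was 0.45 over the 42 members, against -0.03 over all genes tested. Irf1, Bst2 and Isg20 were not called (0.05 ± 0.06, 0.14 ± 0.06 and -0.09 ± 0.05, difference ± SE). By time, 32 were called higher at ZT0 (2.28% of all genes), 17 at ZT4 (1.48%), 3 at ZT8 (3.41%), 2 at ZT12 (2.73%), 13 at ZT16 (4.88%) and 36 at ZT20 (7.21%). The 2 at ZT12 were Irf7 (0.63) and Ifi44 (0.79), and the third at ZT8 was Usp18 (1.08). Irf1 was called lower at ZT12, at -0.57, where 3.49% of all genes were. The ZT16 count moved with single arrays: it was 28 without ketogenic replicate 22, 8 without replicate 5, and 7 without replicate 6. Without chow ZT16 replicate 7 it was 8 and without replicate 9 it was 7. At ZT4 it was 8 without chow replicate 6, 10 without chow replicate 24 and 8 without ketogenic replicate 4. At ZT8 it ranged from 2 to 9 as single arrays were left out, with 9 without chow ZT8 replicate 11 or ketogenic ZT16 replicate 22, 8 without ketogenic ZT16 replicate 6, and 5 without ketogenic ZT4 replicate 20 or 4. At ZT12 it was 1 without any 1 of the 6 arrays of that time.

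Among the regulators, Irf7, the factor that amplifies interferon transcription, stood apart. Its values in the chow liver were 9.05 to 9.93 with a median of 9.38, and on the ketogenic diet 10.11 to 11.05 with a median of 10.39, so the diets did not overlap in any of the 36 arrays. At ZT20 it read 11.04, 10.69 and 11.05 on the ketogenic diet and 9.29, 9.55 and 9.22 on chow. At ZT12 it still read 10.17, 10.11 and 10.14 against 9.35, 9.70 and 9.48. Irf7 (probe set 10569102) was 2.11-fold higher over the day (1.07 ± 0.05), with a difference of 1.57 ± 0.13 at ZT20 and 0.63 ± 0.13 at ZT12. Irf9, a DNA-binding factor of the interferon response, and Stat2, a transactivating one, differed by 0.26 ± 0.06 and 0.11 ± 0.04. Irf1, a factor also induced by interferon gamma, read 8.63, 7.95 and 8.13 at ZT12 on the ketogenic diet and 8.56, 9.13 and 8.73 on chow, and its ketogenic level was highest at ZT4.

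The sensors of RNA and DNA were all higher in liver, by 0.28 to 0.91. Zbp1, which detects Z-form nucleic acid, differed most (probe set 10490150, 0.91 ± 0.09, 1.88-fold). It read 7.61 to 8.36 on chow with a median of 7.91, and 8.00 to 10.10 on the ketogenic diet with a median of 8.90. Ddx60, a helicase that promotes RIG-I signalling, differed by 0.85 ± 0.08, and Dhx58, which encodes LGP2, by 0.81 ± 0.09. Ifih1, which encodes the sensor MDA5 of long double-stranded RNA, read 10.47, 10.33 and 10.63 at ZT20 on the ketogenic diet against 9.38, 9.54 and 9.52 on chow. At ZT16 its ketogenic arrays read 9.27, 9.50 and 10.11 against 9.46, 9.57 and 9.39, with overlap, and its difference over the day was 0.46 ± 0.05. Ddx58 (RIG-I) differed by 0.31 ± 0.06 and Eif2ak2, the kinase PKR that halts translation on double-stranded RNA, by 0.33 ± 0.08. The oligoadenylate synthetases Oas2 and Oas3, which activate RNase L, differed by 0.42 ± 0.09 and 0.28 ± 0.06.

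The effectors held the largest differences and also the lowest, that of Isg20 (-0.09). Ifit1, whose protein binds viral RNA lacking a host cap, read 8.30 to 9.38 in the 18 chow liver arrays with a median of 8.77. On the ketogenic diet it read 10.60, 10.87 and 10.95 at ZT0, 10.52, 10.19 and 10.97 at ZT4, and 9.80, 10.33 and 9.67 at ZT8. It then read 9.12, 8.74 and 8.56 at ZT12, 9.18, 10.51 and 11.28 at ZT16, and 12.28, 11.62 and 12.20 at ZT20. Ifit1 thus overlapped chow at ZT12 (8.30, 8.74 and 8.67) and stood far above it at ZT20 (8.73, 9.18 and 8.46). Its difference (probe set 10462623) was 3.24 ± 0.33 at ZT20, 0.24 at ZT12 and 1.60 ± 0.14 over the day, or 3.02-fold.

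Rsad2, which encodes viperin, an enzyme that makes a chain-terminating nucleotide, read 11.69, 11.15 and 11.40 at ZT20 on the ketogenic diet against 8.41, 8.66 and 7.93 on chow. At ZT12 it read 8.38, 7.88 and 7.62 against 7.88, 7.95 and 7.65, with overlap. The difference of Rsad2 (probe set 10399710) was 1.55 ± 0.13 over the day and 3.08 ± 0.33 at ZT20, and that of its neighbour Cmpk2, a mitochondrial nucleotide kinase, was 1.21 ± 0.11. Ifi44 (probe set 10502791) read 10.80, 10.22 and 11.04 at ZT20 on the ketogenic diet against 8.19, 8.56 and 8.15 on chow, and 9.22, 9.31 and 9.05 against 8.18, 8.51 and 8.53 at ZT12. Unlike Ifit1 it did not overlap chow at ZT12, and its difference over the day was 1.60 ± 0.10. Ifit3 differed by 1.09 ± 0.12, Mx2 by 0.76 ± 0.13, Oasl2 by 0.64 ± 0.08, Samd9l by 0.55 ± 0.07 and Ifit2 by 0.48 ± 0.11. Sp100, a nuclear body protein, differed by 0.14 ± 0.05, while tetherin (Bst2), which holds budding virus at the membrane, and the exonuclease Isg20 were not called.

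Of the feedback genes, Usp18, whose protease removes ISG15 from proteins and restrains the interferon receptor, read 11.83, 11.46 and 11.81 at ZT20 on the ketogenic diet and 8.90, 9.37 and 8.68 on chow. At ZT12 it read 9.42, 9.19 and 9.07 against 8.67, 9.22 and 8.97. Its difference (probe set 10541307) was 1.46 ± 0.12 over the day and 2.72 ± 0.28 at ZT20. Rtp4 differed by 0.79 ± 0.10, Oasl1, which in mice restrains Irf7 translation, by 0.60 ± 0.09, and Trim30a by 0.56 ± 0.07. The RNA-editing enzyme Adar, which marks the cell's own double-stranded RNA, differed least of these, by 0.36 ± 0.06.

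The ubiquitin and ADP-ribose genes were higher by 0.16 to 0.58. The ubiquitin ligase gene Rnf213 led (0.58 ± 0.08), and its 15 probe sets, read on the same RNA, differed by 0.51 to 0.64. The partners Dtx3l and Parp9 differed by 0.34 ± 0.05 and 0.44 ± 0.05, Parp14 by 0.40 ± 0.07, Parp12 by 0.33 ± 0.05, Trim21 by 0.22 ± 0.06 and Trim25, which activates RIG-I, by 0.16 ± 0.05. In antigen processing, the peptide transporter Tap1 differed by 0.31 ± 0.07 and the immunoproteasome subunits Psmb9 and Psmb8 by 0.19 ± 0.06 and 0.13 ± 0.04. Of the other members, Tor3a read 10.43, 10.38 and 10.34 at ZT0 on the ketogenic diet against 8.73, 8.56 and 8.19 on chow, and 8.03, 8.26 and 8.08 against 7.96, 8.05 and 7.88 at ZT8. Tor3a differed by 0.95 ± 0.08 over the day, Xaf1, which promotes apoptosis, by 0.73 ± 0.09 and Lgals3bp by 0.41 ± 0.05.

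**Figure D2:**
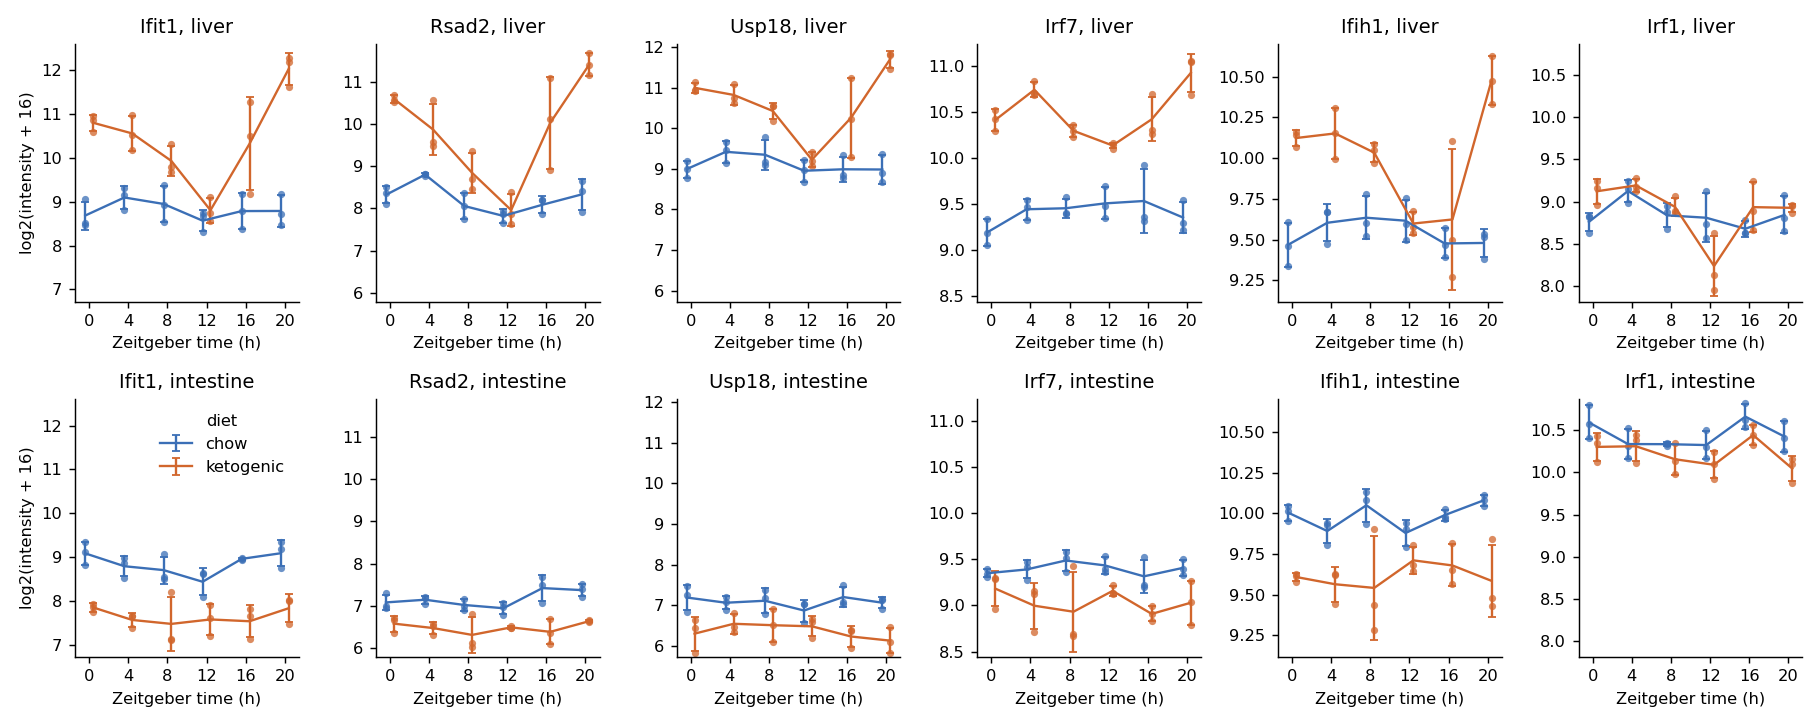
Values of Ifit1, Rsad2, Usp18, Irf7, Ifih1 and Irf1 in every array, log2(intensity + 16), against zeitgeber time in liver (top) and intestine (bottom), each gene on 1 scale in both tissues; lines join group means and bars are the SD of 3 arrays. In liver the ketogenic arrays of Ifit1 reach 12.28 at ZT20 and overlap chow at ZT12, those of Irf7 stay above chow at every time, and in intestine the ketogenic group means of Ifit1, Rsad2 and Usp18 lie below chow at all 6 times.

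Sensors and effectors were both well above chow at ZT20 and level with it at ZT12 in liver. The mean of the 8 sensors was 7.86 to 8.27 in chow arrays and that of the 12 effectors 7.95 to 8.49. At ZT20 on the ketogenic diet the sensors gave 9.48, 9.38 and 9.12 against 7.95, 8.22 and 8.08 on chow. The effectors gave 10.07, 10.16 and 9.71 against 8.25, 8.48 and 8.13. Neither set overlapped chow at that time, and both did at ZT12, where the sensors gave 8.00, 8.03 and 7.89 against 7.87, 8.17 and 8.11 and the effectors 8.28, 8.13 and 8.00 against 7.95, 8.26 and 8.22. The median difference of the sensors was 0.64 at ZT0, -0.05 at ZT12 and 1.07 at ZT20, and that of the effectors 1.02, -0.05 and 1.62. Over the day the medians were 0.44 and 0.70, but the effectors ranged from -0.09 to 1.60 and contained the whole range of the sensors. The feedback genes had a median of 1.66 at ZT20, the ubiquitin and ADP-ribose genes 0.79, the regulators 0.45 and the antigen processing genes 0.43. These differences between role groups were not tested.

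**Figure D3:**
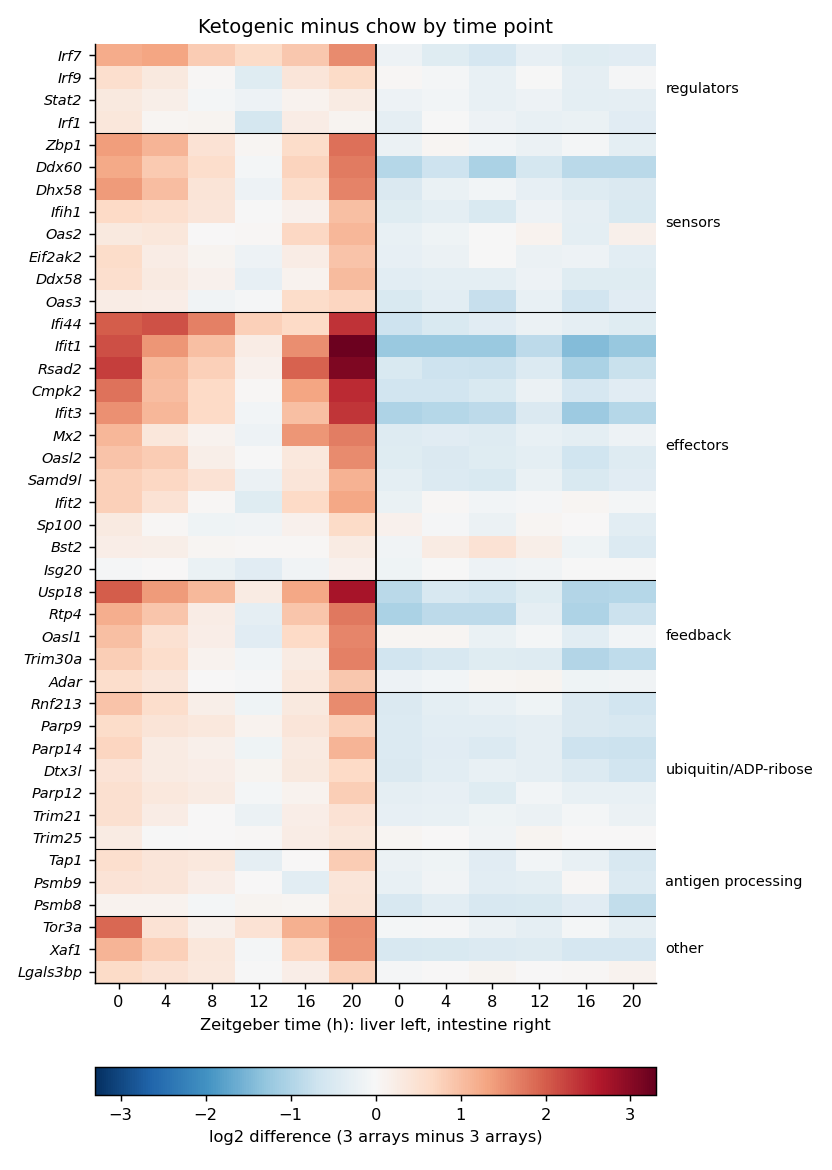
Ketogenic minus chow difference (log2, means of 3 arrays) of each of the 42 genes at each zeitgeber time, liver in the left 6 columns and intestine in the right 6, with genes ordered by role and by liver difference. Liver is red at ZT20 and ZT0 and near 0 at ZT12 in most genes, from 3.24 for Ifit1 at ZT20, while intestine is mostly blue.

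The time of the liver peak was read from a 24 h cosine fitted to the 18 arrays of each diet. On the ketogenic diet the fitted peak fell between ZT20 and ZT24 in 35 members and between ZT0 and ZT1 in 5, and the highest group mean was at ZT20 in 40. The shares of all genes with such peaks were not taken, so nothing is read from these counts. Psmb9 and Psmb8 were the exceptions in the fit, with peaks at ZT 4.7 ± 0.93 h and 15.5 ± 1.90 h, and Irf1 (ZT4) and Psmb9 (ZT8) in the group means. By limma's F test Psmb8, and Bst2, which is among the 35, were not called rhythmic on the ketogenic diet. The fitted peaks of Psmb8 and Bst2 are therefore not read as times. The peak of Rsad2 lay at ZT 21.9 ± 0.40 h with an amplitude, the height of the peak above the mean, of 1.50 ± 0.16. Cmpk2 peaked at 21.9 ± 0.39 h (1.38 ± 0.14), Ifit1 at 22.2 ± 0.56 h (1.18 ± 0.17) and Usp18 at 23.1 ± 0.59 h (0.92 ± 0.14). The earliest sensors, Oas3 and Oas2, peaked at 20.3 ± 0.67 h and 20.6 ± 0.69 h. The last was Ifih1, at 0.3 ± 0.76 h. The lag that JTK_CYCLE, a rank-based rhythm test, gave in the authors' deposited table differed from these fitted peaks. Of the 39 members with a q-value under 0.05 there in ketogenic liver, 29 had a lag of 2 h, Rsad2, Cmpk2, Ifit1 and Usp18 among them. The lag in the authors' deposited table minus the fitted peak had a median of 3.4 h over the 39 and 1.1 h over the 3103 probe sets with such a q-value. With samples 4 h apart, an order among peaks within ZT20 to ZT1 is not resolved for most genes.

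On chow the amplitudes were small: 0.15 ± 0.17 for Ifit1, 0.35 ± 0.16 for Rsad2 and 0.23 ± 0.14 for Usp18. The amplitude was larger on the ketogenic diet in 41 of 42 members, Psmb8 being the exception. The share of all genes with a larger ketogenic amplitude was not taken, so nothing is read from that count. By limma's F test 39 of 41 members were called rhythmic on the ketogenic diet (36.6% of all genes) and 4 on chow (17.5%), the 4 being Stat2, Psmb8, Psmb9 and Tor3a. Nothing is read from these counts, nor from the authors' q-values on the same arrays, since the members were selected on the difference between these rhythms. The chow count was 2 without chow ZT0 replicate 2 or ZT12 replicate 18. The rhythms of 25 were called different between diets, where 1.19% of all genes were, and nothing is read from it because this contrast was in view when the members were listed. That count was 15 without the chow arrays ZT8 replicate 12 and ZT12 replicate 17, 10 without ZT16 replicate 9 as well, and 15 without ketogenic ZT12 replicate 30 alone. In the authors' deposited table, JTK_CYCLE q-values were under 0.05 for 39 of the 42 in ketogenic liver (12.4% of its probe sets) and for 1 in chow liver (2.82%). In the same authors' deposited table BIO_CYCLE q-values were under 0.05 for 0 of the 42 on either diet, against 0.54% and 0.66% of its probe sets.

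**Figure D4:**
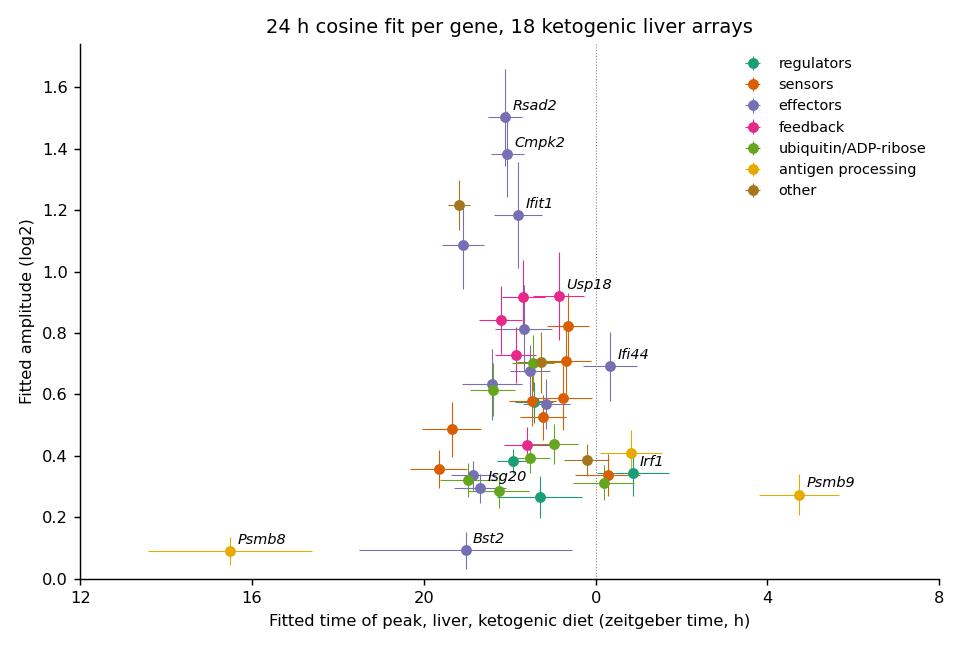
Fitted amplitude (log2) against fitted time of peak (zeitgeber time) of each gene in the 18 ketogenic liver arrays, coloured by role; bars are SE. Of the 42 genes 40 lie between ZT20 and ZT1, with Rsad2 highest at 1.50, and Psmb8 and Psmb9 lie outside. The share of all genes between these times was not taken.

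In intestine the same genes went the other way on the ketogenic diet. Of the 36 tested, 27 were lower (31.3% of all genes were) and 0 were higher (19.6%), by limma with adjusted p. The 27 include Ifit3, Rsad2, Trim30a and Xaf1, whose ketogenic means lay under the limit on mean level. They were tested only through their higher chow values, and they also enter the counts by time and between tissues below. At an unadjusted p under 0.05, 0 members were higher (22.7% of all genes). Within groups the mean of the 42 had an SD of 0.12 in intestine, against a median of 0.19 for single members. The members thus varied together from array to array, and these counts are not counts of independent results. Among all 42, the members too dim to test included, 31 were lower at all 6 times. The share of all genes lower at all 6 times was not taken, so nothing is read from that count. The median difference was -0.33 over the 42 members and -0.02 over all genes tested. The mean of the 42 was 8.24 to 8.63 in chow arrays, with a median of 8.46, and 7.92 to 8.38 in ketogenic arrays, with a median of 8.14. Of the 18 ketogenic arrays, 16 lay below every chow array. The ketogenic arrays gave 8.10, 8.17 and 8.23 at ZT0, 8.22, 8.26 and 8.07 at ZT4 and 8.01, 7.92 and 8.38 at ZT8, where 8.38 was replicate 26. They gave 8.18, 8.17 and 7.97 at ZT12, 7.94, 8.18 and 8.10 at ZT16 and 7.96, 8.06 and 8.20 at ZT20. The level was thus about even through the day, and the difference between group means was smallest at ZT12 (-0.22) and largest at ZT20 (-0.43). Without the 3 arrays with wide residuals 28 members were lower.

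Ifit1 fell most. It read 8.08 to 9.33 in chow intestine with a median of 8.89, and 7.11 to 8.19 on the ketogenic diet with a median of 7.66. At ZT20 it read 7.46, 8.02 and 8.00 on the ketogenic diet and 8.75, 9.17 and 9.33 on chow, and at ZT8 7.11, 7.12 and 8.19 against 8.54, 9.06 and 8.51. The diets did not overlap at any time point, and the fall was 2.31-fold (-1.20 ± 0.10, limma adjusted p = 7.92e-11). Ifit3 fell 1.88-fold (-0.91 ± 0.09) and Rsad2 1.61-fold (-0.68 ± 0.07). Their ketogenic means, 6.63 and 6.48, lay under the limit on mean level, so no p-value is given for them. Rsad2 read 6.78 to 7.69 on chow and 6.03 to 6.80 on the ketogenic diet. Cmpk2, Oasl2 and Samd9l fell by 0.48, 0.44 and 0.40. Sp100, Bst2 and Isg20 were not called (-0.06 ± 0.10, 0.04 ± 0.10 and -0.08 ± 0.06).

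Among sensors the fall was largest for Ddx60 (-0.84 ± 0.07, 1.79-fold, limma adjusted p = 2.48e-10), which read 7.50 to 8.28 on chow and 6.51 to 7.61 on the ketogenic diet. Oas3 fell by 0.48, Ifih1 by 0.37, Ddx58 by 0.32 and Eif2ak2 by 0.20, while Zbp1 was not called (-0.13 ± 0.11). Of the feedback genes Rtp4 (-0.80 ± 0.08, adjusted p = 5.53e-09) and Trim30a (-0.63 ± 0.07, adjusted p = 1.53e-08) fell, and Oasl1 and Adar were not called (-0.10 ± 0.06 and -0.06 ± 0.03). Irf7 fell by 0.36 (adjusted p = 1.48e-05), and Stat2 and Irf1 each by 0.22. A second Irf1 probe set, dimmer than the one used, differed by -0.01 in intestine, so the probe sets of that gene disagree. Irf9 was not called (-0.10 ± 0.05).

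Parp14, Parp9, Dtx3l, Rnf213, Parp12 and Trim21 fell by 0.49, 0.41, 0.41, 0.38, 0.26 and 0.18, and the 15 Rnf213 probe sets gave -0.59 to -0.30. Trim25 was not called (0.01 ± 0.05). All of the antigen processing genes fell, Psmb8 by 0.52, Tap1 by 0.26 and Psmb9 by 0.24. Xaf1 fell by 0.51 and Tor3a by 0.16, and Lgals3bp was not called (0.04 ± 0.03). The 6 members too dim to test gave differences of -0.72 ± 0.09 for Usp18, -0.41 ± 0.11 for Ifi44, -0.33 for Dhx58 and Mx2, -0.07 for Oas2 and -0.05 for Ifit2. Xaf1 and Rsad2 lay just above the limit on mean level in intestine, and the ketogenic mean of Xaf1, 6.56, lay under it.

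At single times the counts lower in intestine were 13 at ZT0 (7.55% of all genes), 7 at ZT4 (2.46%), 13 at ZT8 (5.82%), 0 at ZT12 (1.02%), 15 at ZT16 (5.66%) and 12 at ZT20 (5.07%), by limma with adjusted p. At an unadjusted p under 0.05, 9 were lower at ZT12 (12% of all genes). These counts moved with single arrays. At ZT8 there were 3 without ketogenic replicate 25, 4 without ketogenic replicate 24 or chow replicate 11, and 8 without chow replicate 12. At ZT4 there were 12 without ketogenic ZT8 replicate 26, 1 without ketogenic ZT4 replicate 20, and 3, 4 and 3 without chow ZT4 replicates 24, 25 and 6. At ZT0 there were 8 without chow replicate 2 or ketogenic replicate 1 and 7 without chow replicate 23, and at ZT16 there were 9 without chow replicate 8. Without all 3 arrays with wide residuals the counts were 12, 12, 19, 4, 20 and 15. In intestine 7 members were rhythmic on chow (8.94% of all genes) and 3 on the ketogenic diet (14.7%), namely Cmpk2, Oasl2 and Trim30a. Without the 3 arrays with wide residuals the ketogenic count was 8, and it was 5 to 6 without ketogenic ZT8 replicate 26, ZT16 replicate 22, ZT20 replicate 10 or ZT20 replicate 27. The chow count was 4 without any 1 of ZT0 replicates 2 and 23, ZT12 replicates 17 and 18 and ZT20 replicate 31. Rhythms called different between diets by limma numbered 0 of 36, against 0.0403% of all genes, and 4 at an unadjusted p under 0.05 (6.33%). The authors' deposited table gave JTK_CYCLE q-values under 0.05 for 3 members in chow intestine (3.63% of its probe sets) and 1 in ketogenic intestine (2.52%), and BIO_CYCLE q-values under 0.05 for 0 in either (0.136% and 0%).

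Markers of T and NK cells were lower in ketogenic intestine as well. Of 17 on the array 8 passed the limit on level, and 5 were called lower (31.3% of all genes were) and 0 higher (19.6%): the cytotoxic granule genes Gzma (-1.03), Gzmb (-0.78) and Nkg7 (-0.76), the co-receptor gene Cd8a (-0.21) and the kinase gene Lck (-0.20). The summed intensity of all 17, those under the limit included, was 1438 to 3534 in chow arrays and 950 to 2534 in ketogenic arrays. Cd3e, a defining marker of T cells, was not called (-0.13), and the part of these markers in the result was not tested. In liver, 2 of 12 tested Kupffer cell and macrophage markers were called higher (Cd5l, 0.21, and Fcgr1, 0.17, where 19.2% of all genes were). None were lower (29.1%), and the median was 0.06. The summed intensity of all 15 such markers on the array was 5870 to 9970 on chow and 4847 to 9831 on the ketogenic diet. Of the 12 tested, 7 were rhythmic on the ketogenic diet (36.6% of all genes) and 1 on chow (17.5%), and their part in the liver pattern was not tested.

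The difference between tissues was then taken for each gene as the liver difference minus the intestine difference, with 35 members tested. It was larger in liver for 31 (17.4% of all genes) and smaller for 0 (14.3%; also 0 at an unadjusted p under 0.05, with 18.8% of all genes), by limma with adjusted p, but its liver side was in view when the members were listed. Ifit1 gave 2.80 ± 0.17, Rsad2 2.23 ± 0.15, Ifit3 2.0 ± 0.15 and Cmpk2 1.69 ± 0.13. In the signs alone, 38 of the 42 were positive in liver and negative in intestine, among them 31 of the 35 tested in both tissues, where 16% of all genes were. By limma with adjusted p, 25 were called higher in liver and lower in intestine (3.29% of all genes), and the liver side of both counts chose the members. Bst2, Isg20, Sp100 and Trim25 were not called.

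**Figure D5:**
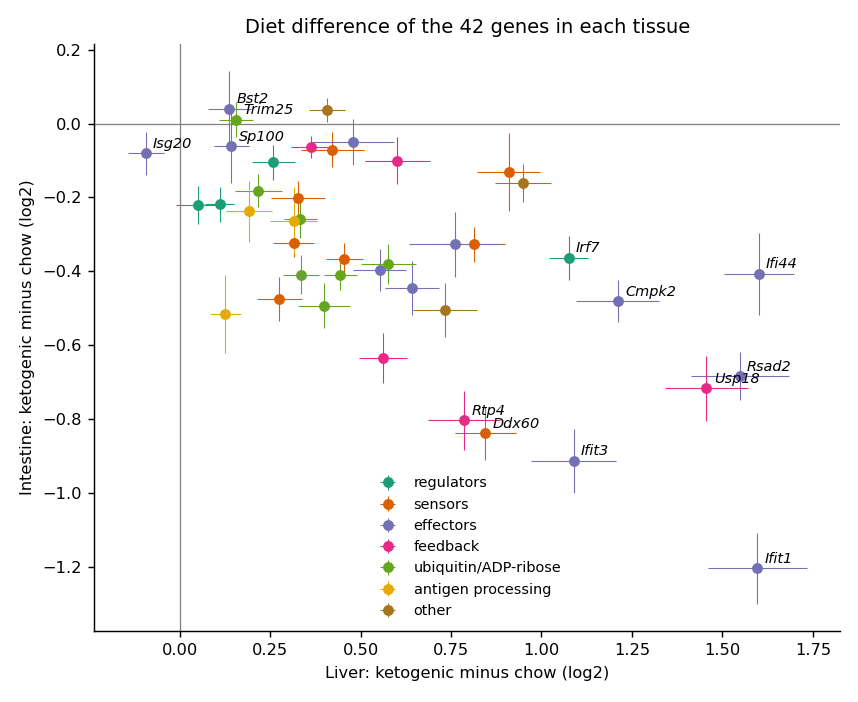
Ketogenic minus chow difference of each gene in liver (x axis) and intestine (y axis), log2, mean of the 6 times, coloured by role; bars are SE from 36 arrays per tissue. Of the 42 genes 38 lie at the lower right, higher in liver and lower in intestine, with Ifit1 at 1.60 and -1.20.

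The rest of the pathway gives the setting. The interferon genes themselves were mostly dim: of 10 on the array 3 passed the limit in liver, Ifna5 (0.26 ± 0.04), Ifnl2 (0.16) and Ifna2 (0.15), all called higher, and Ifnb1 and Ifng did not pass it in either tissue. In intestine Ifna5 was higher (0.22) and Ifnl2 was not called (0.07). Of 14 receptor and kinase genes tested in liver 3 were called higher and 5 lower. The receptor genes Ifnar1 and Ifnar2 were not called (0.00 and 0.03). In intestine 10 of 16 were lower and 1 was higher, among them Jak2 (-0.37), Ifnar2 (-0.35) and Il10rb (-0.31). Socs3, an inhibitor of the kinases, was the 1 that was higher (0.20).

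Of 17 adaptors and upstream sensing genes in liver 4 were called higher and 7 lower, among them the kinase gene Ikbke (-0.27), Irf5 (-0.26), the nuclease gene Trex1 (0.23) and Samhd1 (0.23). In intestine 6 of 15 were lower, Samhd1 most (-0.54), and 1 was higher. A further list of interferon-induced genes outside the 42 had 23 of 30 called higher and 2 lower in liver, led by Oas1a (0.68), Herc6 (0.67), Ifi27 (0.60) and Oas1b (0.56), and 13 of 26 lower and 4 higher in intestine, where Herc6 fell by 0.77. The 4 that were higher there were Mov10 (0.37), Helz2 (0.35), Nlrc5 (0.16) and Ifitm2 (0.16). Among genes induced by interferon gamma, 7 of 10 were higher in liver and 0 lower, with Gbp3 at 0.88, the chemokine gene Cxcl10 at 0.72 and the immunity GTPase gene Irgm1 at 0.66. In intestine 7 of 10 were lower, among them Ido1, which degrades tryptophan (-0.77), and Nos2 was higher (0.73). Of inflammatory genes driven by NF-kB, 2 of 11 were called higher and 3 lower in liver, with Saa2 at -0.53, and 1 of 8 higher and 3 lower in intestine. These lists too were drawn up with earlier results of the arrays known, and each count is to be read beside the shares of all genes given above for the diet contrasts.

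Across the 36 liver arrays, the genes outside the 42 whose values followed their mean most closely included Irgm1 (Pearson r 0.98), Trim30d (0.95), Ifit3b (0.94), Znfx1 (0.94), Trim12a (0.93), H2-T24 (0.93), Zc3hav1 (0.92), Trex1 (0.92) and Pml (0.92). These are correlations over arrays that share the diets and times, and they describe likeness only. These 9 had a positive difference in liver, from 0.22 for Pml to 1.15 for Ifit3b, and a negative one in intestine, from -0.01 for Ifit3b to -0.56 for Trim30d. The 7 of them that were bright enough to test in intestine were called lower there.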

How the data were processed

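RNA of 72 mouse samples was measured on arrays. Per the submitters' processing notes the authors made 1 intensity per probe set and array with PLIER in Affymetrix Expression Console 1.1.1; background and normalization settings are not given in the sources used here. The deposited intensities are linear, from 0.000163 to 89033, and array medians lay at 105 to 119 (liver) and 107 to 121 (intestine). The authors' workbook also holds group means, deposited p-values and q-values from rhythm and diet tests and lags in hours of the unit other; the lags were only set beside the fitted peaks. Its group means equal the means of the 3 arrays within a relative difference of 0.0001 for 25006 of 25006 probe sets. For arrays the number of samples limits the precision.

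Groups were read from the labels. Of 35556 probe sets 22988 were named, 21789 by the platform table and 1199 by the workbook, while 1621 with several symbols were not named by the table. The probe set with the highest mean stood for a gene; 39 members had 1. Values were log2(intensity + 16), and 7.81% of intensities were below 16. Genes under the 40th percentile of mean were left out, which left 12395 per tissue and 10811 in both. Diet was the mean of 6 ketogenic minus 6 chow group means, rhythm a cosine and sine of 24 h per diet; both were fitted with limma 3.58.1 (lmFit, eBayes, two-sided, Benjamini-Hochberg, 0.05) in R 4.3.3 with statmod 1.5.0. Other steps and figures used matplotlib 3.10.9, numpy 2.4.6 and pandas 2.3.3 under Python 3.11.15. The members, their roles and the other lists were chosen with earlier results of these data known. All members may be named; outside them, the 10 genes most correlated with the members' mean in liver and up to 4 called genes of each list and tissue with the largest difference. Of these, 1 gene is not reported here; counts over whole lists include it. Tested on simulated data, 1.25-fold changes were recovered for 97% of genes in the liver diet fit and 88.1% in the intestine diet fit, and 1.5-fold changes for 100% in both. For the rhythm difference between diets 1.25-fold changes were recovered for 76.1% in each tissue. The simulated noise was drawn for each gene on its own, whereas the members varied together, so these shares do not carry over to the members as a set. Alternatives were other filters, median centring, quantile normalization, a pseudocount of 1, robust eBayes with an intensity trend, the mean of all probe sets, a test of any time difference, the title number as a block, arrays left out singly, and the 2 or 3 arrays that stood apart left out; leaving out 3 chow liver arrays was added after seeing the data. A title number found in both tissues was not treated as a pairing in the main fits, and whether it marks 1 animal is not stated. Residuals of liver and intestine arrays correlated at a median of 0.024 over the 22 pairs of 1 number. Over 86 pairs of unlike numbers the median was -0.008. Such residuals cannot decide whether both tissues came from 1 animal.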

Additional observations from a re-analysis of the deposited data

Results flagged for a closer look

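Results of 2 kinds met a rule for a closer look, and neither is explained here. For 31 genes the diet difference was larger in liver than in intestine by the test of the difference between tissues, whose liver side was in view when the genes were listed. The liver minus intestine values (log2) were 2.80 for Ifit1, 2.23 for Rsad2, 2.0 for Ifit3, 1.69 for Cmpk2, 1.68 for Ddx60, 1.59 for Rtp4 and 1.44 for Irf7. They were 1.24 for Xaf1, 1.2 for Trim30a, 1.11 for Tor3a, 1.09 for Oasl2, 1.04 for Zbp1, 0.96 for Rnf213, 0.95 for Samd9l, 0.89 for Parp14, 0.85 for Parp9, 0.82 for Ifih1, 0.74 for Dtx3l and 0.70 for Oasl1. The smallest were 0.64 for Psmb8, 0.64 for Ddx58, 0.59 for Parp12, 0.58 for Tap1, 0.53 for Eif2ak2, 0.43 for Psmb9, 0.43 for Adar, 0.40 for Trim21, 0.37 for Lgals3bp, 0.36 for Irf9, 0.33 for Stat2 and 0.27 for Irf1.

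For 25 genes the liver diet difference changed with time of day by the test of the rhythm difference, which was also in view. The amplitude on the ketogenic diet minus that on chow (log2) was 1.15 for Rsad2, 1.03 for Ifit1, 1.01 for Cmpk2, 0.84 for Mx2, 0.83 for Rtp4, 0.83 for Tor3a, 0.79 for Oasl1 and 0.74 for Dhx58. It was 0.69 for Trim30a, 0.69 for Usp18, 0.67 for Ifit3, 0.67 for Oasl2, 0.65 for Rnf213, 0.62 for Xaf1, 0.57 for Ifit2, 0.54 for Ddx60, 0.52 for Ifi44 and 0.52 for Parp14. It was 0.49 for Samd9l, 0.46 for Ddx58, 0.45 for Irf9, 0.38 for Zbp1, 0.37 for Adar, 0.33 for Lgals3bp and 0.31 for Sp100.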

How the results depend on the processing

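Over the day, 38 liver members were higher (34 to 39 under the alternatives, 38 to 39 with single arrays left out) and 27 intestine members lower (18 to 31, and 26 to 29), and none of these 38 and 27 changed sign under any of them; 32 and 16 were called under every one. Members called lower in liver numbered 0 to 1 with single arrays left out. The liver counts at ZT8 were 5 with the 60th percentile filter, 6 with quantile normalization and 5 with an intensity trend (2 to 9 with single arrays left out), and at ZT12 1 with no filter, median centring, the trend, or 2 or 3 chow arrays left out (1 to 2). At ZT16 the count was 7 without the 3 chow arrays (7 to 28), at ZT0 it ranged from 22 to 33, at ZT4 from 8 to 21 and at ZT20 from 34 to 38. In intestine the 60th percentile filter, which drops dim members, gave 8 at ZT0, 4 at ZT4, 8 at ZT8 and 9 at ZT16. Median centring gave 2 at ZT12, and leaving out the 3 arrays with wide residuals gave 12 at ZT4 and 4 at ZT12. Single arrays left out gave 7 to 16 at ZT0, 1 to 12 at ZT4, 3 to 19 at ZT8, 0 to 2 at ZT12, 9 to 18 at ZT16 and 9 to 16 at ZT20. Members rhythmic on chow in liver were 1 with a test of any time difference (2 to 4), and the rhythm difference was called for 15 and 10 without 2 and 3 chow arrays (15 to 31). Rhythmic intestine members on chow were 4 with no filter or the test of any time difference (4 to 8), and on the ketogenic diet 6 with quantile normalization, 8 without the 3 arrays and 1 with any time difference (2 to 6). The tissue difference was called for 22 with the 60th percentile filter, 38 with no filter and 31 to 32 under the other alternatives (30 to 32 with single arrays left out). With the title number as a replicate block, 39 liver members were higher, 27 intestine members lower and 31 differed between tissues, so the block changed none of these by over 1.5 times. Within a tissue that block joined a chow and a ketogenic array of the same number, and between tissues arrays of 1 diet and number. The within-tissue counts therefore say nothing about whether replicates were separate animals. Uncalled values that changed sign were those of Trim25 in intestine (-0.0093 with median centring, -0.0015 without the 3 arrays, -0.014 to 0.031 with single arrays left out) and Bst2 there (-0.041 to 0.099, the lowest without ketogenic ZT8 replicate 25). Xaf1 fell below the filter in intestine without chow ZT0 replicate 2, ZT4 replicate 24 or ZT20 replicate 31. The cause of the other shifts was not tested.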
